A study of Homo sapiens with 24 samples.

Results

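This report describes the middle of an induced loss of mitochondrial DNA (mtDNA): DN-POLG cells on day 6 of doxycycline against the same cells on day 0. DN-POLG cells are HEK293 cells, a human embryonic kidney line, that carry a dominant-negative mtDNA polymerase gamma under a promoter that doxycycline switches on. The 6 arrays were chosen by their titles, 3 of day 6 (10 ng/mL doxycycline, 2 flasks pooled per culture) and 3 of day 0 (not induced, 1 flask), out of 24 arrays in the series. The others are DN-POLG days 3 and 9, cells that also carry the bypass enzymes AOX and NDI1 at days 9 and 0, and 6 arrays of 143B osteosarcoma cells. Per the labels, all cultures were grown in high glucose medium with uridine and pyruvate. The day 6 and day 0 cultures come from the same cell line, and a day 6 culture without doxycycline was not analysed here, so time in the drug, time in culture and the transgene cannot be told apart.

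Polymerase gamma is the enzyme that copies mtDNA, and its dominant-negative form lets the genome thin out as cells divide. MtDNA encodes core subunits of the respiratory chain and ATP synthase, so its transcripts report on the depletion. Cells that lose respiratory function are known to start the integrated stress response, in which kinases that phosphorylate the initiation factor eIF2 raise the translation of the transcription factor ATF4. ATF4 then turns on genes of amino acid synthesis, amino acid uptake and tRNA charging. It is controlled largely at translation, so the level of its own mRNA need not follow its activity.

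One of the 6 arrays stood apart. The ratio of the 3′ to the 5′ probe set of ACTB, which rises when RNA is degraded, was 8.92, 1.05 and 1.27 in replicates 1, 2 and 3 of day 6, against 1.75, 1.19 and 1.08 in those of day 0. For GAPDH the ratios were 1.97, 1.01 and 0.933 at day 6, against 1.06, 0.930 and 0.959 at day 0. Replicate 1 of day 6 was thus high in both, while the other 17 HEK293 arrays lay between 1.05 and 1.81 for ACTB. Between the days as groups, an exact two-sided permutation test gave p = 0.7 for ACTB and p = 0.6 for GAPDH, where 3 against 3 cannot go below 0.1. The same array correlated at 0.83 to 0.898 with the other HEK293 arrays, whose own pairs reached 0.885 to 0.983. Replicates of day 6 had a median SD of 0.44 on the log2 scale, or 0.22 without replicate 1, and those of day 0 had 0.40. Results are therefore given with and without that array.

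**Figure D1:**
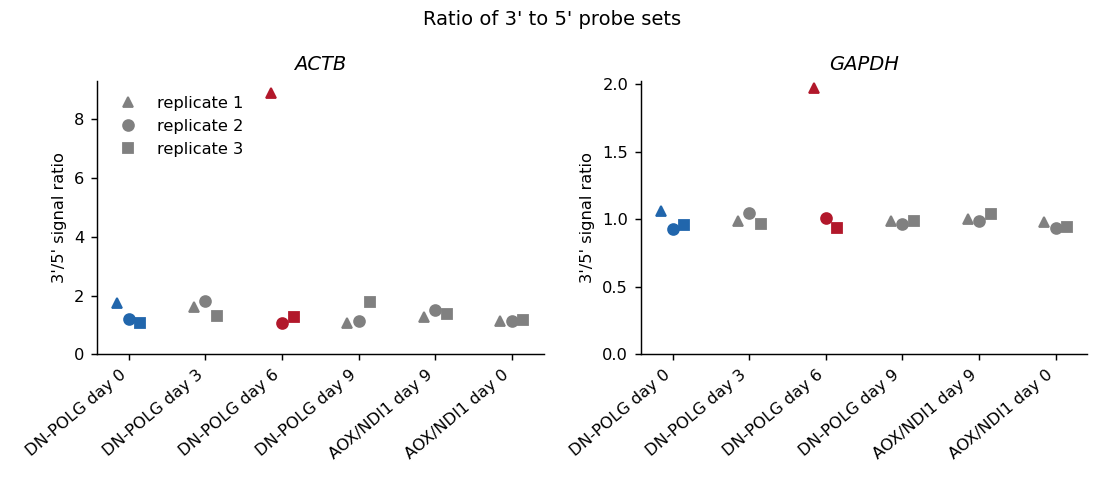
Ratio of the signal of the 3′ to that of the 5′ probe set of ACTB (left) and GAPDH (right) in each of the 18 HEK293 arrays, by group, with a marker shape for each replicate number. Replicate 1 of DN-POLG day 6 stands at 8.92 for ACTB and 1.97 for GAPDH, above the other arrays.

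Of 12104 genes tested (23132 probe sets), 65 were called higher and 226 lower at day 6, at an adjusted p of 0.05 from limma, a linear model that shares the spread over genes. Another 6 genes had probe sets called in both directions. These are 0.537%, 1.87% and, for all 297 genes, 2.45% of the genes tested. In each of the 318 probe sets called, the day 6 arrays all lay on one side of the day 0 arrays. The calls were made from these same arrays, so that separation adds no support to them. Over all genes, day 6 lay wholly above day 0 in 4.08% and wholly below it in 7.77%, by their brightest probe set. Without replicate 1 of day 6, 40 genes were higher and 117 lower (1.31% of genes called), and 120 of the 297 genes were shared. With the culture round, given by the replicate number, as a block over all days of a cell model, 17 were higher and 25 lower (0.347%). In 38 probe sets, 17 higher and 21 lower, the call held in all 3 fits. These fits share their spread with the AOX/NDI1 arrays, whose median SD was 0.15 at day 0 and 0.21 at day 9. With the 12 DN-POLG arrays alone, 6 of the 38 probe sets passed, among them those of POLG, EIF2AK4, ANKRD44, ZCCHC14 and ARHGAP24. The calls of NUPR1, CRYAB, ASNS, EIF4EBP1 and COX2 did not hold there (adjusted p of 0.0811, 0.0851, 0.104, 0.156 and 0.174). The balance of rises and falls depended on scaling: 22.3% of genes called in 1 direction were higher with the signals as deposited, 41.8% after quantile normalization and 64.1% with arrays set to one median, a step that moved the median log2 fold change of all probe sets to 0.07, against -0.03 as deposited. Of the fits that left out 1 of these 6 arrays, the counts moved most without replicate 2 of day 0 (199 higher and 599 lower) and without replicate 3 of day 0 (25 and 25). Without replicate 1 of day 0 there were 53 and 80, and without replicate 3 of day 6 there were 38 and 96. Of the 63 called probe sets named in the text or its gene lists, 17 passed with each array left out in turn. The call ended in 45 without replicate 3 of day 0, in 27 each without the first replicate of day 0 or without replicate 3 of day 6, in 19 without replicate 1 of day 6, in 11 without replicate 2 of day 6 and in 4 without replicate 2 of day 0.

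**Figure D2:**
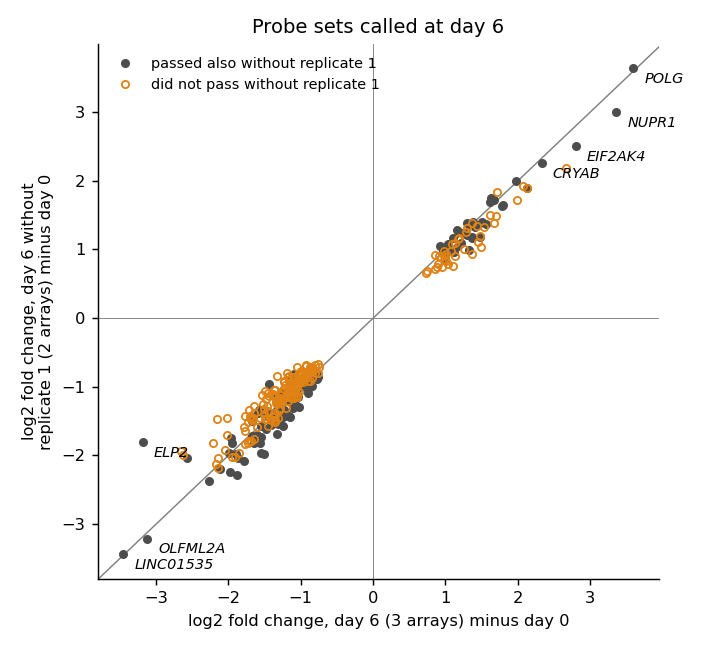
Log2 fold change of each probe set called at day 6, from all 3 day 6 arrays (horizontal axis) and without replicate 1 of day 6 (vertical axis), each against 3 day 0 arrays. Filled points, 124 of 318, also passed without that array, and the grey diagonal marks equal values.

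POLG, the polymerase that the transgene encodes in altered form, was the largest rise. Its signal (in the units of the MAS5 algorithm, proportional to hybridized RNA) was 3773, 3719 and 4570 in replicates 1 to 3 of day 6, against 307, 421 and 280 at day 0. The groups were far apart and all 3 day 6 arrays, replicate 1 included, lay within a narrow range. The log2 fold change was 3.60 (standard error 0.53, adjusted p = 0.00827 from limma), or 3.64 without replicate 1 (adjusted p = 0.0281). The call held with any of the 6 arrays left out. A second POLG probe set read 2283, 961 and 1288 at day 6, against 1180, 1295 and 643 at day 0, so its groups overlapped (log2 fold change 0.51, adjusted p = 0.441). Which of these a transcript of the transgene would hybridize to is not given in the sources used here. Of 24 genes of mtDNA replication and maintenance, POLG alone was called, where 2.45% of all genes were called in some direction.

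All 7 mtDNA genes on the array had a log2 fold change below 0 at day 6. Of them 1 passed the test, where 1.87% of all genes were called lower. COX2, a core subunit of cytochrome c oxidase, had signals of 21734, 22676 and 17056 at day 6, against 35826, 53940 and 39008 at day 0. Its groups did not overlap, and its other probe set was called with all arrays (log2 fold change -1.03, adjusted p = 0.0453) but not with any 1 of the 6 left out (0.0548 to 0.102) or with the culture round as a block (0.0833). The log2 fold change was -1.05 (standard error 0.22, adjusted p = 0.0314, 0.0459 without replicate 1 of day 6, but 0.0724 with the culture round as a block and 0.0739 without replicate 3 of day 6 or 0.0727 without replicate 3 of day 0).

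ATP6, a subunit of ATP synthase, had signals of 10732, 2953 and 7698 at day 6, against 19908, 14103 and 22884 at day 0. Replicate 1 was the highest of the day 6 arrays, yet below every day 0 array. The log2 fold change was -1.57 (adjusted p = 0.0514), and without replicate 1 it was -1.96 (adjusted p = 0.0358). A dim second probe set overlapped between the days (log2 fold change -0.59, adjusted p = 0.672). ND6, the subunit of complex I encoded on the opposite strand from most mtDNA genes, read 2195, 434 and 931 at day 6, against 4981, 1590 and 3313 at day 0. Here replicate 1 overlapped the day 0 range, and the log2 fold change was -1.63 (adjusted p = 0.113), or -2.22 without it (adjusted p = 0.0449). In both genes, then, the array with the high ACTB ratio was the day 6 array nearest to day 0, and the part of RNA quality in that was not tested.

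The other mtDNA transcripts did not pass. The complex I subunits ND2 and ND4 had log2 fold changes of -0.68 and -0.28, and the oxidase subunits COX1 and COX3 of -0.20 and -0.88 (adjusted p of 0.149, 0.522, 0.717 and 0.675). ND2 was lower in each day 6 array than in each day 0 array. COX1 read 35512 to 46134 at day 6, against 42739 to 59651 at day 0, and the ranges overlapped. The median over the 7 genes was -0.88, or -1.08 without replicate 1, beside -0.01 over all tested genes. In RNA from whole cultures, fewer cells that carry a transcript and less of it in each cell cannot be told apart.

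Some targets of ATF4 rose. Of 26 tested, 3 were called higher (NUPR1, ASNS and EIF4EBP1) and 0 lower, all 3 also without replicate 1 of day 6, where 0.537% of all genes were called higher. The list's median log2 fold change was 0.39, beside -0.01 over all genes, and 20 of 26 members lay above 0. Without replicate 1 of day 6 the median was 0.41 and 16 of 26 lay above 0. In 7 members every day 6 array lay above every day 0 array, where 4.08% of all genes did so. In 2, the amino acid transporters SLC38A2 and SLC7A1, every day 6 array lay below, where 7.77% of all genes did so.

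NUPR1, a small chromatin protein induced by stress, had signals of 1042, 388 and 621 at day 6, against 113, 39.6 and 51.4 at day 0. The lowest day 6 array was above the highest day 0 array, and replicate 1 was the highest within both days. The log2 fold change was 3.36 (standard error 0.50, adjusted p = 0.00827), or 3.00 without replicate 1 of day 6 (adjusted p = 0.0320). The call held with any 1 array left out, but not with the 12 DN-POLG arrays alone (adjusted p = 0.0811). The mean day 0 signal of 68.0 lay close to the signal filter of 57.2, so the size of the fold is less certain than its direction.

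ASNS, asparagine synthetase, is an ATF4 target of amino acid synthesis. Its signals were 27025, 21792 and 21585 at day 6, against 11265, 6314 and 7894 at day 0. All 3 day 6 arrays were bright and close together, and none approached the day 0 range. The log2 fold change was 1.50 (standard error 0.26, adjusted p = 0.0160; 0.0608 without replicate 3 of day 0). EIF4EBP1, a repressor of cap-dependent translation, read 19641, 9904 and 9788 at day 6, against 4641, 6303 and 4142 at day 0. The groups were apart, with replicate 1 far above the other day 6 arrays. The log2 fold change was 1.32 (adjusted p = 0.0263), or 0.99 without that array (adjusted p = 0.0459), and the call was lost with the culture round as a block (adjusted p = 0.0614), without replicate 1 of day 0 (0.0637) or without replicate 3 of day 0 (0.0981).

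Other targets had higher means but did not pass. PCK2, the mitochondrial enzyme that makes phosphoenolpyruvate, read 663 to 1054 at day 6, against 285 to 536 at day 0 (log2 fold change 1.05, adjusted p = 0.0668). Without replicate 1 of day 6 its log2 fold change was 0.83 (adjusted p = 0.171). The secreted cytokine GDF15, a marker of mitochondrial disease, read 1538, 1250 and 2277 at day 6, against 630, 1164 and 792 at day 0. All its day 6 arrays were above day 0, but replicate 2 of each day differed little, and the log2 fold change of 0.97 had an adjusted p of 0.159. FGF21, the other such cytokine, lay under the signal filter in all 6 arrays (6.49 to 24.0 at day 6, against 6.81 to 39.2 at day 0). The mRNA of ATF4 itself read 20875 to 37602 at day 6, against 17810 to 32343 at day 0, with overlapping groups (log2 fold change 0.28, adjusted p = 0.634).

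**Figure D3:**
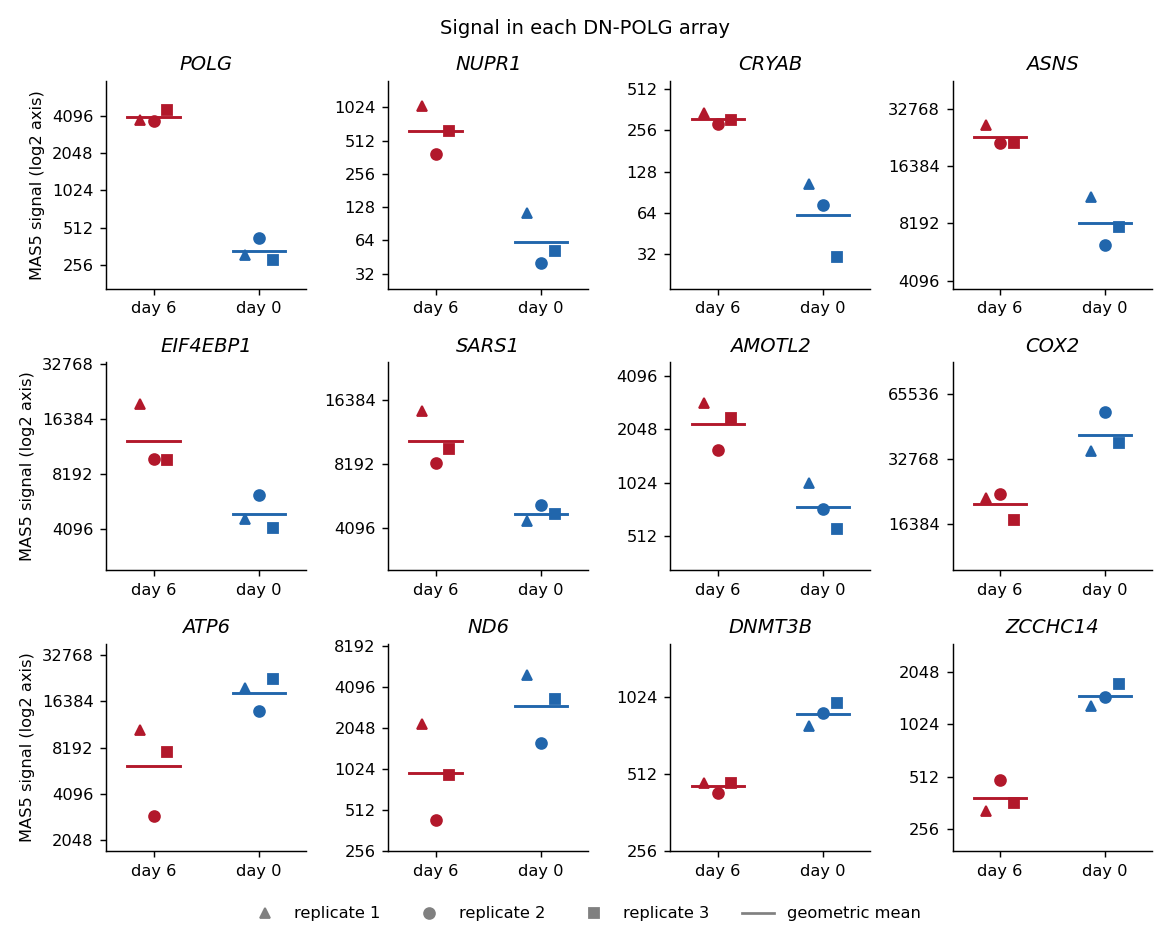
MAS5 signal (log2 axis, a scale of its own in each panel) of 12 genes in the 3 arrays of day 6 (left, red) and the 3 of day 0 (right, blue), with a marker shape for each replicate number and a bar at the geometric mean; the probe set of each gene is the one whose values the text gives first. The days do not overlap except in ND6, where replicate 1 of day 6 (2195) lies within the day 0 range.

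Cytosolic tRNA synthetases, which load amino acids onto tRNAs and many of which ATF4 regulates, rose in part. Of 17 tested, 3 were called higher and 0 lower, where 0.537% of all genes were called higher. A log2 fold change above 0 was found in 15, or 14 without replicate 1 of day 6, and the median was 0.41, or 0.33 without that array, beside -0.01 over all genes. SARS1, the seryl synthetase, read 14451, 8293 and 9625 at day 6, against 4390, 5212 and 4732 at day 0 (log2 fold change 1.14, adjusted p = 0.0268). Its 3 day 6 arrays all exceeded day 0, with replicate 1 far above the others. GARS1, the glycyl synthetase, and YARS1, the tyrosyl synthetase, had the same pattern, with log2 fold changes of 1.03 and 1.11 (adjusted p of 0.0373 and 0.0406). None of the 3 passed without replicate 1 (adjusted p of 0.0551 for SARS1, 0.0811 for GARS1 and 0.0696 for YARS1), nor with the culture round as a block (0.0702, 0.0879 and 0.0801). The calls also ended without replicate 1 or replicate 3 of day 0, and for YARS1 without replicate 3 of day 6. CARS1, the cysteinyl synthetase, read 7093 to 12051 at day 6, against 4668 to 5330 at day 0, and did not pass (adjusted p = 0.0734). Its log2 fold change was 0.81, or 0.58 without replicate 1 of day 6 (adjusted p = 0.170).

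ATF4 binds, with a C/EBP partner, an element of the form TGATGNAA. In RefSeq promoter windows of GRCh38.p14 (250 bases before to 50 after each gene's start), this form was present on either strand in 3.67% of 27305 promoters and in 1.72% of the 9891 tested genes with a window. It was present in 5 of the 22 ATF4 targets and 5 of the 14 synthetases that matched a window. The windows of SARS1 and GARS1 did not hold it, NUPR1, EIF4EBP1 and YARS1 had no window in the table used, and of the genes called with a window it was in 2 of 54 higher and 1 of 178 lower. The promoters of 3 genes are shown to let the element be read in place, in ASNS, called higher, and in CARS1 and NARS1, whose day 6 arrays all lay above day 0 without passing. SLC7A1, whose brightest probe set lay wholly below day 0 without passing (log2 fold change -0.29), held the element too. So did AARS1, ATF3, HERPUD1, IARS1, SLC3A2 and TARS1, whose days overlapped. Each of the 3 shown is printed on the strand of its gene, with the element in capitals, which in CARS1 lies on the opposite strand and so reads as its reverse complement.
ASNS (chr7:97872359-97872658, minus strand): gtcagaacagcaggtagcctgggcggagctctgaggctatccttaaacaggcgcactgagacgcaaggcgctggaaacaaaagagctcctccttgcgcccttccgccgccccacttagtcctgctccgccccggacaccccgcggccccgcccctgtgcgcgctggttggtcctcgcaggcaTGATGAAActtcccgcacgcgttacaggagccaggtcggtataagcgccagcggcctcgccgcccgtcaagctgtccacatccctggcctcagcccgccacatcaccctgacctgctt
CARS1 (chr11:3057374-3057673, minus strand): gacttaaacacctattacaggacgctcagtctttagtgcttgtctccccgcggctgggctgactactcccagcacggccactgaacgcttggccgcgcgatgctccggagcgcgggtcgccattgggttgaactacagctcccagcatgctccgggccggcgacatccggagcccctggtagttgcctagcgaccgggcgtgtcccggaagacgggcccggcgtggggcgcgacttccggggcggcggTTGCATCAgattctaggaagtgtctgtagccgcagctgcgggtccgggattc
NARS1 (chr18:57621787-57622086, minus strand): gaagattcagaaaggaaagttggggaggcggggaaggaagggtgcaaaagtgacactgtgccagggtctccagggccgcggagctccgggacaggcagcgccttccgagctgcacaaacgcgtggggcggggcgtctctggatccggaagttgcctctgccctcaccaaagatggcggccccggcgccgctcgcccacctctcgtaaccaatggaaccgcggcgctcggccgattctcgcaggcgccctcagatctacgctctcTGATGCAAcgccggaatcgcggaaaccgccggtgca
In ASNS the element begins 68 bases before the start of the gene.

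Among the 17 regulators of the integrated stress response, 1 was called, where 2.45% of all genes were called in some direction. EIF2AK4, the kinase GCN2 that senses uncharged tRNAs, was higher by one probe set, with signals of 1502, 606 and 1072 at day 6, against 235, 106 and 116 at day 0. The groups were well apart, and the log2 fold change was 2.80 (standard error 0.32, adjusted p = 0.00123), or 2.50 without replicate 1 of day 6 (adjusted p = 0.00675). Its brighter probe set did not follow (log2 fold change -0.31, adjusted p = 0.775), so the array gives no single answer for the gene. The genes of serine, glycine and folate metabolism had 0 of 21 called and a median of 0.08. PHGDH, the entry enzyme of serine synthesis, read 6611 to 10332 at day 6, against 4461 to 5829 at day 0, without overlap but without passing (log2 fold change 0.70, adjusted p = 0.112). Without replicate 1 of day 6 the log2 fold change of PHGDH was 0.52 (adjusted p = 0.253). SHMT2, the mitochondrial serine hydroxymethyltransferase, had a log2 fold change of 0.95 by its most significant probe set (adjusted p = 0.0730). Without replicate 1 of day 6 it was 0.58 (adjusted p = 0.134). By the brightest probe set of SHMT2 the values were 0.80 and, without that array, 0.38.

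**Figure D4:**
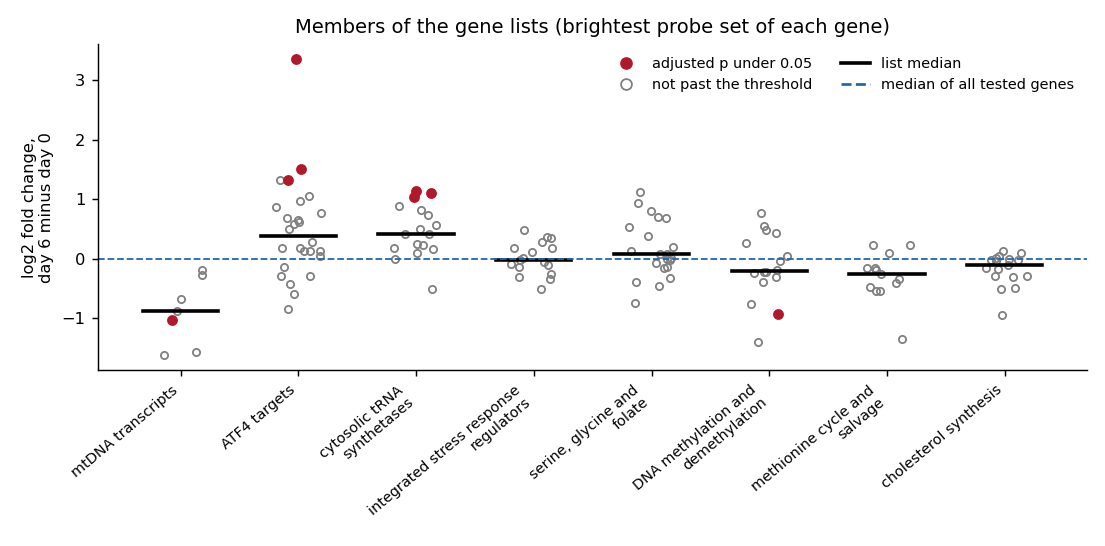
Log2 fold change, day 6 minus day 0, of each tested member of 8 gene lists, by the brightest probe set of each gene. Filled red points passed (adjusted p from limma), black bars are list medians and the dashed line is the median of all tested genes; the mtDNA transcripts have the lowest median (-0.88) and the tRNA synthetases the highest (0.41).

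The largest rises and falls were taken as the 14 in each direction among genes called both with and without replicate 1 of day 6. Beside POLG, NUPR1 and ASNS, the rises fell into no single list. CRYAB, the small heat shock protein alpha B crystallin, had signals of 345, 286 and 303 at day 6, against 104, 73.6 and 30.5 at day 0 (log2 fold change 2.33, adjusted p = 0.0138). The day 6 arrays were tight and the day 0 arrays spread. AMOTL2, an angiomotin relative that holds back the coactivator YAP, read 2872, 1570 and 2360 at day 6, against 1017, 731 and 561 at day 0 (log2 fold change 1.56, adjusted p = 0.0116; 0.0501 without replicate 3 of day 0). Both genes have 1 tested probe set. Passing without replicate 1 of day 6 was a condition for entering this group of largest changes. Both calls also held with the culture round as a block.

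For the other 9 genes among the 14 largest rises, the array holds several probe sets. They are FOXN2, a forkhead transcription factor, with a log2 fold change of 2.13, ANKRD44 with 1.98, the tyrosine kinase ABL2 with 1.80, the mRNA-binding protein IGF2BP1 with 1.79, DICER1, which cuts microRNA precursors, with 1.66, the NF-kB adaptor BCL10 with 1.63, GCFC2, a factor of intron binding, with 1.62, INPP5F, an inositol phosphatase, with 1.48, and EIF2AK4, given above. In 8 of the 9, all but ANKRD44, the brightest probe set of the gene did not pass. The other 3 probe sets of ANKRD44 did not pass either, with log2 fold changes of -0.00, -1.16 and -0.98. The fold of FOXN2 is uncertain in size, since its day 0 signals of 17.6, 44.3 and 44.7 lay under the signal filter. The calls of FOXN2 and BCL10 ended with the culture round as a block (adjusted p = 0.0551 and 0.0553). For DICER1 the probe set that rose read 290, 345 and 313 at day 6, against 120, 66.6 and 124 at day 0, while the brightest averaged 2761 at day 6 and 1895 at day 0, a log2 fold change of 0.31 (adjusted p = 0.835). The probe set of DICER1 that rose was thus a dim one. Over all 297 genes called, 235 had more than 1 tested probe set, and in 18 of these more than 1 was called. Probe sets of a gene can read different ends or isoforms, and which transcript each of these reads was not tested.

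In 5 of the 14 largest falls the mean day 6 signal lay under the filter of 57.2. LINC01535, a long noncoding RNA, had signals of 8.39, 8.11 and 9.04 at day 6, against 77.8, 41.1 and 252 at day 0. OLFML2A, a secreted olfactomedin-like protein, read 18.2, 14.2 and 15.9 at day 6, against 172, 135 and 117 at day 0. ARHGAP24, which switches off Rac and Cdc42, read 18.4, 14.1 and 15.7 at day 6, against 54.1, 66.7 and 125 at day 0. In all 3 genes the day 6 arrays lay close together at signals under that filter, and the log2 fold changes of -3.45, -3.12 and -2.26 (adjusted p = 0.00827 each) held with any one array left out and are uncertain in size. With the 12 DN-POLG arrays alone, ARHGAP24 passed (adjusted p = 0.0453), and LINC01535 and OLFML2A did not (0.0851 each). ELP2, a subunit of the Elongator complex that modifies tRNA, had a log2 fold change of -3.18, of which much lay in replicate 1 of day 6 (2.14, beside 52.1 and 26.4 in the other day 6 arrays and 123 to 142 at day 0), and -1.81 without it. Its brightest probe set averaged 2177 at day 6 and 1854 at day 0 and did not pass (adjusted p = 0.553). The probe set annotated to MIR3682 also fell, with a log2 fold change of -2.57 and an adjusted p of 0.0160, or -2.04 without replicate 1 of day 6. Its day 6 signals of 13.5, 39.8 and 41.4 were under the filter, so its fold is uncertain in size too, and the array does not read mature microRNAs.

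In the other 9 falls the mean day 6 signal was above the filter. For MFAP3L and LINC01128 this rested on replicate 1 of day 6. Without it their day 6 means were 45.9 and 47.2, so these folds are uncertain in size too. ZCCHC14, a zinc finger protein with 1 tested probe set, had signals of 326, 492 and 365 at day 6, against 1311, 1464 and 1746 at day 0. The groups were far apart with little spread, and the log2 fold change was -1.95 (standard error 0.20, adjusted p = 0.00123), or -1.82 without replicate 1 (adjusted p = 0.00508). PAFAH1B1, the dynein regulator LIS1, read 392, 653 and 609 at day 6, against 1670, 1838 and 3058 at day 0 (log2 fold change -1.97, adjusted p = 0.00827). Its brightest probe set averaged 4002 at day 6 and 2990 at day 0 (log2 fold change 0.69, adjusted p = 0.426), so the gene's probe sets disagreed. ZNF407-AS1, an antisense RNA, read 126 to 166 at day 6, against 344 to 1100 at day 0 (log2 fold change -1.99). The others of the 14 were PCF11, which ends transcription at poly(A) sites, with -1.90, MFAP3L with -1.88, C21orf58 with -1.79, TET1, DIDO1 and LINC01128. Without replicate 3 of day 0, 9 of the 14 calls ended. With the culture round as a block 7 ended, those of PCF11 (adjusted p = 0.0508), C21orf58 (0.0541), DIDO1 (0.0551), ZNF407-AS1 and TET1 (0.0614 each), MFAP3L (0.0633) and ELP2 (0.0838).

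In 6 genes probe sets passed in both directions. For DIDO1, a chromatin reader, one probe set read 1081, 1588 and 1301 at day 6, against 629, 498 and 648 at day 0. Another read 205, 167 and 244 at day 6, against 577, 574 and 641 at day 0. The groups were apart in both, with log2 fold changes of 1.15 (adjusted p = 0.0263) and -1.56 (adjusted p = 0.00827), and one more probe set fell by 2.12 on the log2 scale. The others were LINC01128, TARDBP, an RNA-binding protein of splicing, WDFY3, an autophagy adaptor, ZC3HAV1, an antiviral RNA-binding protein, and ZNF704. In ZC3HAV1 one probe set rose by 1.21 and one fell by 1.28 on the log2 scale. Averaged over probe sets, the log2 fold changes of these 6 genes lay between -0.55 and 0.10 and none passed.

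Of 16 genes of DNA methylation and demethylation, 2 were lower and 0 higher, with and without replicate 1 of day 6, where 1.87% of all genes were called lower. DNMT3B, a de novo DNA methyltransferase, read 475, 435 and 475 at day 6, against 788, 887 and 978 at day 0. The groups were apart with small spread (log2 fold change -0.93, adjusted p = 0.0309, 0.0459 without replicate 1 of day 6), but the call ended with the culture round as a block (0.0838), without replicate 2 or 3 of day 6 (0.0532 and 0.0600) or without replicate 3 of day 0 (0.101). TET1, which oxidizes 5-methylcytosine, was lower by a dim probe set that averaged 67.9 at day 6 and 253 at day 0, without overlap (log2 fold change -1.87, adjusted p = 0.0182; 0.0614 with the block and 0.0727 without replicate 3 of day 0). Its brightest probe set did not pass (adjusted p = 0.517, log2 fold change 0.25). TET2, of the same family, read 75.1 to 147 at day 6, against 194 to 457 at day 0, and TDG, the glycosylase that removes oxidized bases, 2980 to 4156 at day 6, against 4733 to 7185 at day 0. Neither overlapped, and neither passed (adjusted p of 0.0730 and 0.0713). The list's median was -0.21. By the brightest probe set, 3 members lay wholly below day 0 and 3 wholly above it. Those above were DNMT3A, UHRF2 and ZBTB33, and none was called (log2 fold changes of 0.77, 0.55 and 0.43). Over all genes, 7.77% lay wholly below and 4.08% wholly above. MAT2A, which makes the methyl donor S-adenosylmethionine, read 1037 to 1604 at day 6, against 2098 to 6257 at day 0 (log2 fold change -1.35, adjusted p = 0.0860), and the 13 genes of the methionine cycle had 0 called and a median of -0.26.

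Among regulators of chromatin, KDM7A, a demethylase of repressive histone marks, was the 1 of 62 histone-modifying genes called (280 to 378 at day 6, against 119 to 183 at day 0, log2 fold change 1.17, adjusted p = 0.0218). Among 30 splicing genes, CLK4, a kinase of splicing factors, was higher (942, 998 and 1343 at day 6, against 609, 458 and 309 at day 0, log2 fold change 1.29, adjusted p = 0.0213). LUC7L3, a partner of the U1 particle, was lower, with 3 of its 6 probe sets called (log2 fold change -1.39 by the most significant, adjusted p = 0.0277). All 3 calls held without replicate 1 of day 6, none with the culture round as a block (0.0645, 0.0746 and 0.0601), and none without replicate 3 of day 0. By comparison with these 2 lists, 2.45% of all genes were called in some direction.

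Of 55 genes of inositol phosphates and phosphoinositides, 1 was higher (INPP5F) and 3 were lower, where 0.537% of all genes were called higher and 1.87% lower. PLCB1, a phospholipase that releases inositol trisphosphate, read 315, 412 and 346 at day 6, against 842, 627 and 894 at day 0 (log2 fold change -1.13, adjusted p = 0.0274). PPIP5K1, which makes inositol pyrophosphates, read 68.8 to 99.7 at day 6, against 176 to 182 at day 0 (log2 fold change -1.10, adjusted p = 0.0406), while its brightest probe set overlapped (log2 fold change 0.41, adjusted p = 0.574). PIP4K2A, a phosphoinositide kinase, read 602 to 695 at day 6, against 887 to 1192 at day 0 (log2 fold change -0.74, adjusted p = 0.0472). None of the 3 passed with the block (0.0788, 0.0906 and 0.129), and PPIP5K1 alone passed without replicate 1 of day 6. Of 67 nuclear-encoded genes of the respiratory chain, NDUFA10 of complex I was higher and ATP5MC3, which encodes the c subunit of ATP synthase, was lower, each by 1 of several probe sets, and neither without replicate 1 of day 6 (adjusted p of 0.120 and 0.0865). The median of that list was 0.07, and 2.45% of all genes were called in some direction.

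Single members were called in other lists, where 2.45% of all genes were called in some direction. ERN1, the stress sensor IRE1 of the endoplasmic reticulum, was higher (370, 382 and 469 at day 6, against 153, 250 and 174 at day 0, log2 fold change 1.11, adjusted p = 0.0309), while the list's median over 18 genes was -0.14. CASTOR1, the arginine sensor of mTORC1, was lower (45.7 to 78.5 at day 6, against 106 to 139 at day 0, log2 fold change -1.17, adjusted p = 0.0416). Both held without replicate 1 of day 6 and neither with the block (0.0702 and 0.0977). CHORDC1, a cochaperone of HSP90, was higher, and HSPA4, an exchange factor of HSP70, RFC3, a loader of the replication clamp, the interferon-induced IFIT1 and EYA1, a marker of HEK293 cells, were lower, and these 5 calls ended without replicate 1 of day 6 (adjusted p between 0.0604 and 0.126). The 28 immediate early genes had 0 called and a median of 0.28. No member was called among the 76 mitochondrial ribosomal proteins, 31 mitotic genes, 30 genes of the TCA cycle, 22 of glycolysis, 17 of cholesterol synthesis, 23 of growth arrest, 19 of polyamines, 20 mitochondrial chaperones and proteases or 20 of NRF2, and their medians lay between -0.11 and 0.13. Without replicate 1 of day 6 these medians lay between -0.20, for cholesterol synthesis, and 0.16, beside -0.03 over all genes. Of the 17 genes of cholesterol synthesis, 4 lay above 0 with all arrays and 2 without that array. Of 11 markers of mesenchymal cells, which HEK293 cells should largely lack, none was called and the median was 0.07.

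Of other genes that the study discusses by name, none passed at day 6 with all arrays. SAT1, which acetylates polyamines for export, read 28112 to 43700 at day 6, against 18572 to 33884 at day 0, with overlap (log2 fold change 0.53, adjusted p = 0.343). MYC read 387 to 832 at day 6, against 631, 1106 and 4972 at day 0, where replicate 3 stood far above the others (log2 fold change -1.49, adjusted p = 0.181). PPARA, a nuclear receptor of fatty acid oxidation, read 165, 138 and 168 at day 6, against 238, 271 and 272 at day 0 by its brightest probe set (log2 fold change -0.73, adjusted p = 0.123). Another of its 6 probe sets passed without replicate 1 of day 6 (log2 fold change -1.41, adjusted p = 0.0358). MFSD2A, a lipid transporter, overlapped by its brightest probe set (log2 fold change 0.29, adjusted p = 0.613). Averaged over its 2 tested probe sets the log2 fold change was -0.48 (adjusted p = 0.448), so the 2 disagreed. BHMT, of methionine synthesis, lay under the filter (22.8 to 35.6 at day 6, against 13.1 to 42.5 at day 0).

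Day 6 was also set against the mean of days 3 and 9, a contrast that does not use day 0. At an adjusted p of 0.05, 0 genes were higher and 4 lower (0.033% of genes): LINC01535, OLFML2A, ARHGAP24 and IQCK, a protein with calmodulin-binding motifs. ARHGAP24 read 58.2 to 81.6 at day 3, 14.1 to 18.4 at day 6 and 62.0 to 89.5 at day 9. Its 3 day 6 arrays, replicate 1 among them, were below every other DN-POLG array, and the difference was -2.19 on the log2 scale (standard error 0.29, adjusted p = 0.0175). LINC01535 read 80.0 to 126 at day 3, 8.11 to 9.04 at day 6 and 41.0 to 133 at day 9 (difference -3.23, adjusted p = 0.0175). OLFML2A read 178 to 244 at day 3, 14.2 to 18.2 at day 6 and 20.0 to 114 at day 9 (difference -2.79, adjusted p = 0.0319), and IQCK 163 to 229, 73.0 to 102 and 164 to 228 (difference -1.18, adjusted p = 0.0380). Each of the 4 was thus lowest at day 6 and higher again at day 9. None passed without replicate 1 or 3 of day 6 or replicate 2 or 3 of day 3, and 22 genes passed without replicate 2 of day 6. None passed with no filter or with 32 added to the signal either. Of the 12104 genes, 2013 had a probe set with an unadjusted p under 0.05. That count is not corrected for the 23132 probe sets tested and is not read as a result.

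**Figure D5:**
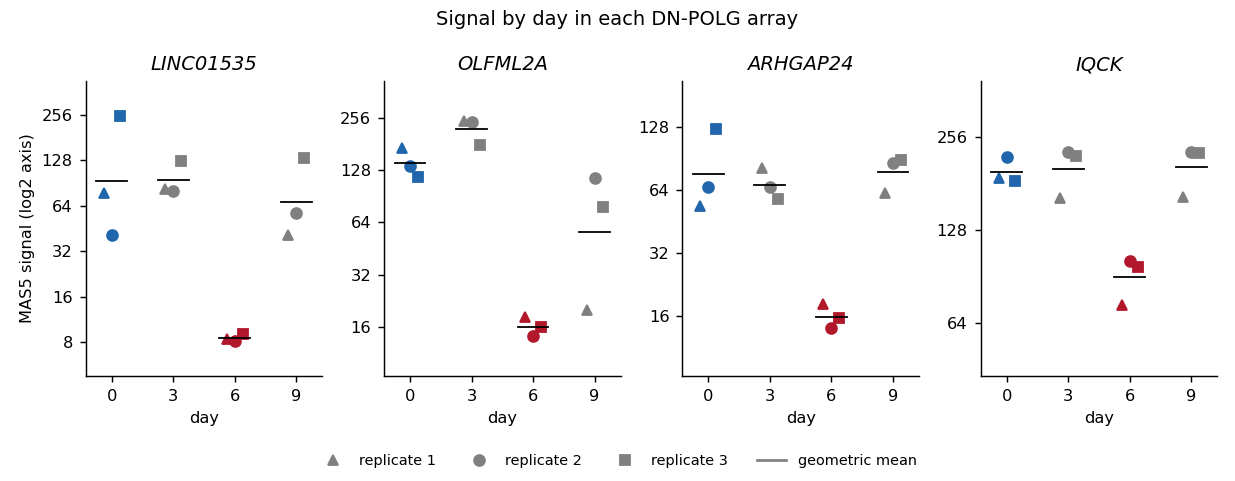
MAS5 signal (log2 axis) of LINC01535, OLFML2A, ARHGAP24 and IQCK in the 12 DN-POLG arrays by day, with a marker shape for each replicate number and a bar at the geometric mean. The red day 6 arrays lie below all others in each gene, at 8.11 to 9.04 for LINC01535 and 14.1 to 18.4 for ARHGAP24.

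The comparisons of days 3, 6 and 9 share the day 0 arrays, so their values stand side by side only as a description. For POLG the log2 fold changes against day 0 were 3.26, 3.60 and 3.54 at days 3, 6 and 9. For NUPR1 they were 1.73, 3.36 and 3.36, for ASNS 0.88, 1.50 and 1.66, and for CRYAB 1.38, 2.33 and 2.62. For mtDNA transcripts they were -0.47, -1.05 and -1.85 for COX2, -0.54, -1.57 and -2.51 for ATP6 and -0.75, -1.63 and -2.53 for ND6. For ZCCHC14 they were -0.23, -1.95 and -2.23, and for DNMT3B 0.04, -0.93 and -0.40.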

How the data were processed

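RNA of 24 samples was hybridized to Affymetrix HG-U133 Plus 2.0 arrays, of which the 18 HEK293 arrays were used. The deposited values are linear MAS5 signal intensities, computed by the authors with Affymetrix Expression Console, in which each array is scaled to one trimmed mean (500.1 when 2% of probe sets were trimmed at each end). MAS5 subtracts mismatch probes, so values near the floor are noisy and their fold changes uncertain. Median signals were 55.0 to 77.5, and 3 arrays per group limit the precision.

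Of 54675 probe sets, 41097 have 1 gene symbol in the platform annotation (1801 several, 11777 none), and 41043 matched RefSeq. Signals were put on the log2 scale with nothing added. Probe sets with 1 symbol, outside the 62 control probe sets and averaging 5.84 or more in log2 signal (signal 57.2) were tested, which left 23132 probe sets of 12104 genes. Means of 6 groups were fitted with limma 3.58.1 in R 4.3.3, with Benjamini-Hochberg adjustment over all tested probe sets and a threshold of 0.05. A gene was called where any probe set passed and none passed the other way. List medians use the brightest probe set of each gene.

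Named were POLG, the mtDNA transcripts, genes the study discusses, the 14 largest rises and falls called with and without day 6 replicate 1 whose arrays did not overlap, for each list up to 4 genes of lowest p, and genes off the mean of days 3 and 9. Members and lists were chosen with earlier results of these data known. The study's legends treat each culture round from one starter culture as a replicate, and deviations of same-numbered arrays of days 6 and 0 correlated at 0.169, 0.205 and 0.165, so the numbers were taken to pair these days. Between day 6 and day 3 the values were 0.00479, 0.139 and 0.346, and between day 6 and day 9 they were -0.109, -0.0181 and -0.158. Pairing was thus uneven with day 3 and not shown with day 9. The block nonetheless joined same-numbered arrays of all days within DN-POLG and within AOX/NDI1 cells, days 3 and 9 included. The fit was tested on 10 simulated sets, drawn with independent normal noise at the residual spread of each probe set. A median of 22.4% of changes of 1 on the log2 scale passed (14.9% to 32.8%), 80.6% of changes of 2 and 95.5% of changes of 3. Of the calls, 2.22% to 9.46% were of unchanged probe sets. A change near 1 that did not pass is thus not shown to be absent. All simulated arrays shared 1 spread per probe set. The real groups did not: median SDs were 0.44 and 0.40 at DN-POLG days 6 and 0, and 0.15 to 0.28 in the other groups. No simulated array stood apart as replicate 1 of day 6 did. The simulated shares therefore need not hold for the real calls. Alternatives were normalization, filter, pseudocount, arrays in the fit, block, array weights, the ACTB ratio as covariate, the methods' ANOVA, probe set rules and each array left out.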

Additional observations from a re-analysis of the deposited data

Results flagged for a closer look

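Day 6 lay off the mean of days 3 and 9 in 4 genes by a test of that difference itself (limma). The differences were -3.23 for LINC01535, -2.795 for OLFML2A, -2.19 for ARHGAP24 and -1.18 for IQCK on the log2 scale. All 3 day 6 arrays were lower than every day 3 and day 9 array in each gene. The ACTB ratio was high in replicate 1 of day 6 (8.92), and 0 genes passed without that array. With the ACTB ratio as a covariate 0 genes passed too, and the part of RNA quality was not tested further.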

How the results depend on the processing

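The counts of genes called moved with most settings, and the cause was not tested. Against 65 higher and 226 lower, there were 15 and 17 with no filter, 37 and 109 with the stricter filter (signal 410), 71 and 99 after quantile normalization, 75 and 42 with arrays set to one median, 3 and 3 with the 12 DN-POLG arrays alone, 1 and 0 with the 6 arrays of days 6 and 0 alone (1241 genes at an unadjusted p of 0.05), 241 and 610 with array weights, 13 and 54 with probe sets averaged, and 33 and 139 with the brightest probe set. With the replicate block over all days there were 17 and 25, and 2 and 2 with the block and without day 6 replicate 1. The counts moved less with 32 added to the signal (84 and 269) and with the ACTB ratio as a covariate (57 and 195). The same held for the intensity trend (68 and 198), the methods' ANOVA (78 and 206) and leaving out probe sets of several transcripts (66 and 222). Leaving out each array gave 25 to 199 higher and 25 to 599 lower. Settings chosen after seeing the data, each without day 6 replicate 1, gave 1 and 0 (12 DN-POLG arrays), 39 and 29 (quantile), 57 and 16 (one median), and 5 and 17 (averaged). Against 4 genes off the mid-course, quantile normalization, the block and leaving out probe sets of several transcripts gave 2 each, and no filter, the stricter filter, 32 added to the signal, the 12 arrays, the block without day 6 replicate 1, the ACTB covariate, the intensity trend, the methods' ANOVA and all 4 added settings gave 0 each. Leaving out each array gave 0 to 22. That difference has no value in the 6 arrays alone.

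With probe sets averaged, the log2 fold change turned for 7 called probe sets, first with all arrays and then without day 6 replicate 1: ANKRD44 (-0.041 and -0.01735), LINC01128 (-0.55 and -0.75), DIDO1 (-0.39 and -0.35), ZC3HAV1 (-0.30 and -0.44), TARDBP (0.10 and 0.20), WDFY3 (-0.39 and -0.20) and ZNF704 (-0.55 and -0.41). YARS1 turned without day 6 replicate 1 (-0.030). Of these, 6 are genes whose probe sets passed in both directions.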
